A study of Mus musculus with 12 samples.

Results

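Cytosolic nucleic acid sensing was followed through 10 mouse genes of the cGAS-STING and RIG-I-like receptor pathways, of the 56884 genes in the deposited count tables. They are a list of genes named for their place in these pathways, with no threshold on a measured value, and were found by matching gene identifiers to symbols. The list was chosen with earlier results of these data known, so the shares of all genes printed beside its counts are descriptions and no independent test. The older symbols Mb21d1, Tmem173 and Ddx58 stand for Cgas, Sting1 and Rigi. RNA came from tumours of TS/A cells, a mouse mammary carcinoma line, combined with cancer-associated fibroblasts, and every sample carries the genotype label WT. The 12 libraries fall into 4 groups of 3: tumours given radiotherapy and muFAP-4-1BBL (RT_FAP41BBL), radiotherapy alone (RT), muFAP-4-1BBL alone (FAP41BBL), and control tumours. The control treatment is labelled None, and the series text calls the group vehicle. The agent muFAP-4-1BBL is, by the series title, an agonist of the T cell costimulatory receptor 4-1BB that is directed to fibroblast activation protein, which activated fibroblasts carry on their surface. Dose, schedule, host strain, animal and harvest time are not stated in the labels. P-values therefore rest on the spread among the samples as labelled, and that spread may be technical only.

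As background, cells detect nucleic acid in the wrong place through a pair of routes. Cgas binds double-stranded DNA in the cytosol and makes the second messenger cGAMP, which activates Tmem173 (STING) at the endoplasmic reticulum. RIG-I (Ddx58) and MDA5 (Ifih1) bind double-stranded RNA and signal through Mavs on mitochondria. Both routes reach the kinase Tbk1, which activates interferon regulatory factors and so type I interferon genes. Interferon in turn is known to raise transcription of many of the sensors themselves, and the DNA route is known for its part in the response of tumours to radiation. Trex1 and Samhd1 limit the nucleic acid that can be sensed, and Enpp1 breaks down cGAMP outside the cell.

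Interferon-response elements near the transcription start are the best known link between interferon and the sensors, so the start regions of the members that moved together are shown first. RefSeq start windows on GRCm38.p6, each from 250 bases before to 50 bases after the start, were searched for 8 of the 10 members. No such window was at hand for Dhx58, and Tmem173 was left out of the search. The core letters of an interferon-stimulated response element (ISRE), GAAA, any 2 bases and GAAA again, were searched on both strands. Capitals mark the match in these 30-base sites, printed 5′ to 3′ along the gene's strand.
Ddx58 site (chr4:40239804-40239833, minus strand): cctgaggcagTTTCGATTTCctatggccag
Ifih1 site (chr2:62646206-62646235, minus strand): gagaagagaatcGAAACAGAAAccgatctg
The Ddx58 match covered bases 3 to 12 after the start and read on the opposite strand. The Ifih1 match covered bases 33 to 42 after the start and read along the gene. Of 32851 such windows in the whole table, 3.44% held this core. No other searched member's window held it.

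The 100 bases before the start are shown for the RNA sensors Ddx58 and Ifih1, which were both higher in RT than in control and have a window, and for their adaptor Mavs, which was not called in any comparison.
Ddx58 (chr4:40239826-40239925, minus strand): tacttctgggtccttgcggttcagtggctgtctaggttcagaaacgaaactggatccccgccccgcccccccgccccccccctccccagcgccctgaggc
Ifih1 (chr2:62646256-62646355, minus strand): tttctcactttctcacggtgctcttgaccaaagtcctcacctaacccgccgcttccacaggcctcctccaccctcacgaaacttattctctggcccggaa
Mavs (chr2:131233963-131234062, plus strand): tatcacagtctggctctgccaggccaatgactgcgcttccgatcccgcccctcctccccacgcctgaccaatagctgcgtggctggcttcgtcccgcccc
The Samhd1 window held the letters of a gamma-activated site, TTC, any 3 bases and GAA, searched in the same way, at bases 235 to 227 before the start.
Samhd1 site (chr2:157135312-157135341, minus strand): acaccaccctTTCGGAGAAacacaagggcg
This motif occurred in 8.3% of all windows. The NF-kB letters GGG, any 2 bases and TTTCC, found in 1.63% of windows, were in none of the searched members' windows. These matches are descriptions of letters, and no binding was measured.

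Total counts were 37393177 to 38446771 in RT_FAP41BBL, 39367317 to 42067481 in RT, 34076477 to 39069755 in FAP41BBL, and 35176469 to 38174041 in control libraries. Levels are given as CPM, counts scaled to a fixed library total, with TMM factors, and levels of different genes are compared only per kilobase of exon (RPKM). Of 17757 genes that passed the low-count filter, 9 were members. The exception was Trex1. RT libraries stood apart in skeletal muscle transcripts: the summed level of 21 muscle markers was 659 to 1210 CPM in RT_FAP41BBL, 7284 to 16808 CPM in RT, 105 to 2504 CPM in FAP41BBL and 70.6 to 765 CPM in control. The summed level of 15 macrophage and monocyte markers was 5820 to 7337 CPM in RT_FAP41BBL, 3163 to 5139 CPM in RT, 4457 to 5304 CPM in FAP41BBL and 3837 to 4898 CPM in control. Fibroblast markers summed to between 5255 and 11693 CPM and epithelial markers to between 327 and 593 CPM over the libraries, and no marker of these 4 lists was at 0 throughout a group. The tumours are mixed tissue, so fewer cells of a type and less RNA per cell cannot be told apart.

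The RNA sensors gave the clearest difference between tumours. Ddx58 (chromosome 4, 40203773 to 40239828, minus strand, in GRCm39), which encodes RIG-I, the sensor of short double-stranded RNA with triphosphate ends, had 202, 246 and 176 CPM in RT_FAP41BBL tumours, 211, 240.3 and 221 CPM in RT, 130.3, 169 and 133 CPM in FAP41BBL, and 121, 128 and 144 CPM in control. Each of the 6 irradiated tumours was above each of the 6 non-irradiated ones, though the gap between 176 CPM in RT_FAP41BBL replicate 3 and 169 CPM in FAP41BBL replicate 2 was small. Ifih1 (chromosome 2, 62426142 to 62476599, minus strand), which encodes MDA5, the sensor of long double-stranded RNA, had 184, 223 and 149.8 CPM in RT_FAP41BBL, 171, 204 and 193 CPM in RT, 96.3, 139 and 99.6 CPM in FAP41BBL, and 95.2, 93.1 and 111 CPM in control. Its irradiated and non-irradiated tumours did not overlap either. Dhx58 (chromosome 11, 100585710 to 100595097, minus strand), which encodes LGP2, a regulator of the other RNA sensors that lacks their signalling domain, had 121, 171 and 105 CPM in RT_FAP41BBL, 128, 102 and 119 CPM in RT, 59.9, 81.8 and 66.8 CPM in FAP41BBL, and 58.6, 59.0 and 76.1 CPM in control. Here the lowest irradiated tumour, at 102 CPM, lay clear of the highest non-irradiated one, at 81.8 CPM. With Mavs, 4 of the 9 measured members had all 6 irradiated tumours above all 6 others, a position that 1.78% of all tested genes held.

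**Figure D1:**
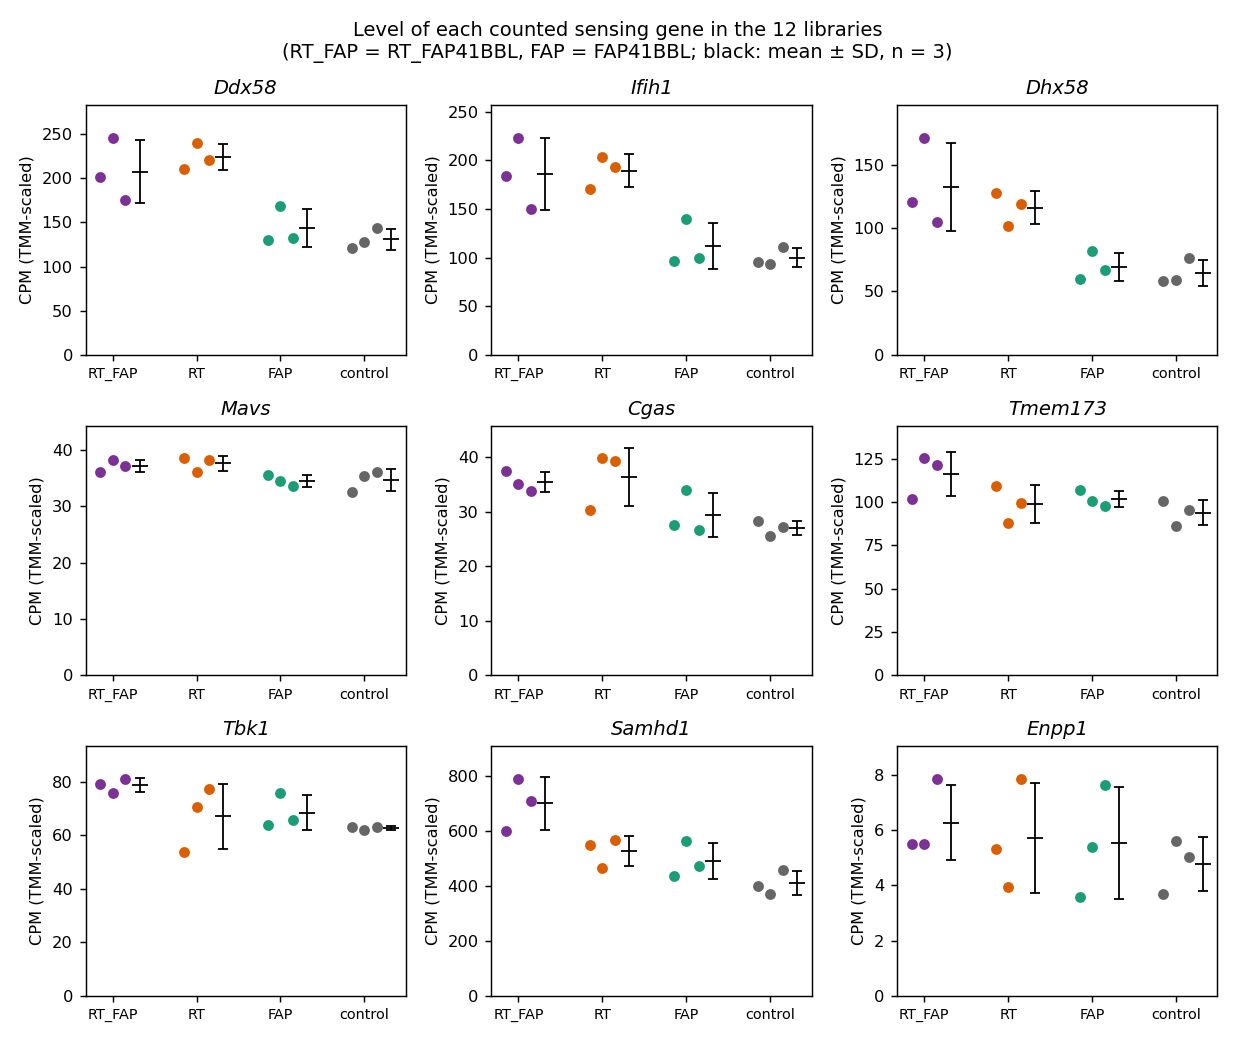
CPM (TMM-scaled, vertical axes from 0) of the 9 counted sensing genes in the 12 libraries, with one coloured point per library and the mean ± SD of 3 in black beside each group. Ddx58, Ifih1 and Dhx58 form a higher irradiated pair of groups on the left of each panel (the lowest irradiated values are 176, 149.8 and 102 CPM), while Mavs lies between 32.5 and 38.5 CPM throughout.

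In RT against control tumours, 4 of the 9 measured members passed the test, all higher, against 6.57% of all tested genes that were called higher. Ifih1 averaged 189 ± 16.8 CPM in RT and 99.8 ± 9.83 CPM in control (SD, n = 3 each), a log2 change of 0.92 ± 0.17 (SE; adjusted p = 0.00553). Dhx58 averaged 116 ± 13.2 CPM in RT and 64.6 ± 9.99 CPM in control, a log2 change of 0.85 ± 0.18 (adjusted p = 0.0134). Ddx58 averaged 224 ± 15 CPM in RT and 131 ± 11.5 CPM in control, a log2 change of 0.78 ± 0.14 (adjusted p = 0.00537). These 3 genes were thus 1.71 to 1.90 times as high in RT tumours, and Ifih1 and Ddx58 passed with any 1 library left out, while Dhx58 missed without control replicate 1 (adjusted p = 0.0568) or 2 (adjusted p = 0.0676). The fourth, Cgas, passed narrowly and is described with the DNA route. The median log2 change was 0.37 over the 9 members and -0.0019 over all tested genes.

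The RT tumours are also those with the high muscle signal, and 11 of the 21 muscle markers passed the same test, all higher, beside 6.57% of all tested genes. When a muscle score per library entered the fit as a covariate, which nearly coincides with the RT group, none of the 9 members and 3 of all tested genes passed. The estimates in that fit were 1.28 ± 0.27 for Ifih1 (adjusted p = 0.0979), 1.16 ± 0.31 for Dhx58 (adjusted p = 0.184) and 1.05 ± 0.23 for Ddx58 (adjusted p = 0.113). Over the 12 libraries Ifih1, Ddx58 and Dhx58 correlated with the summed muscle level at r = 0.51, 0.55 and 0.44. Within groups the values were -0.46, -0.47 and -0.35, all as a description. The part of muscle tissue in the difference between RT and control was not tested.

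In RT_FAP41BBL against control, 4 of the 9 members also passed, all higher, against 5.59% of all genes called higher. The RNA sensors were again among them. Dhx58 averaged 132 ± 34.7 CPM in RT_FAP41BBL and 64.6 ± 9.99 CPM in control, a log2 change of 1.04 ± 0.18 (adjusted p = 0.00726). Ifih1 averaged 186 ± 36.8 CPM in RT_FAP41BBL and 99.8 ± 9.83 CPM in control, a log2 change of 0.90 ± 0.17 (adjusted p = 0.00827). Ddx58 averaged 208 ± 35.6 CPM in RT_FAP41BBL and 131 ± 11.5 CPM in control, a log2 change of 0.67 ± 0.14 (adjusted p = 0.0137). Samhd1 was the fourth. None of the 21 muscle markers passed in this comparison, though 20 of the 21 estimates were above 0, with a median log2 change of 0.96. The part of muscle tissue in this difference was not tested. Of the members, 4 still passed with the muscle covariate, 5 in DESeq2 and 6 with only those 2 groups in the fit. Without control replicate 2 only Dhx58 passed, and Ddx58 also missed without RT_FAP41BBL replicate 2 (adjusted p = 0.0651) or control replicate 1 (adjusted p = 0.0539). RT and RT_FAP41BBL were compared with the same control libraries, so these comparisons are not independent of each other.

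A comparison that shares no library with RT against control is RT_FAP41BBL against FAP41BBL, where both groups received the agonist. None of the 21 muscle markers passed there, with 12 of the 21 estimates above 0 and a median log2 change of 0.19. Of the 9 members, 1 passed, against 0.822% of all genes called higher. That was Dhx58, which averaged 132 ± 34.7 CPM in RT_FAP41BBL and 69.5 ± 11.2 CPM in FAP41BBL, a log2 change of 0.93 ± 0.18 (adjusted p = 0.0427). Its call was lost without RT_FAP41BBL replicate 1 or 2 or FAP41BBL replicate 1 or 3, and in a fit of these 6 libraries alone. Ifih1 (186 ± 36.8 CPM in RT_FAP41BBL, 112 ± 24 CPM in FAP41BBL) differed by 0.73 on the log2 scale with a 95% interval of 0.37 to 1.09 and missed the threshold (adjusted p = 0.0565), which it passed in DESeq2, with the muscle covariate, and without FAP41BBL replicate 2 (adjusted p = 0.0275). Ddx58 (208 ± 35.6 CPM in RT_FAP41BBL, 144 ± 21.5 CPM in FAP41BBL) differed by 0.53, with an interval of 0.23 to 0.83 (adjusted p = 0.0929). For all 3 genes the 3 RT_FAP41BBL tumours lay above the 3 FAP41BBL tumours, as did 12.3% of all tested genes.

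**Figure D2:**
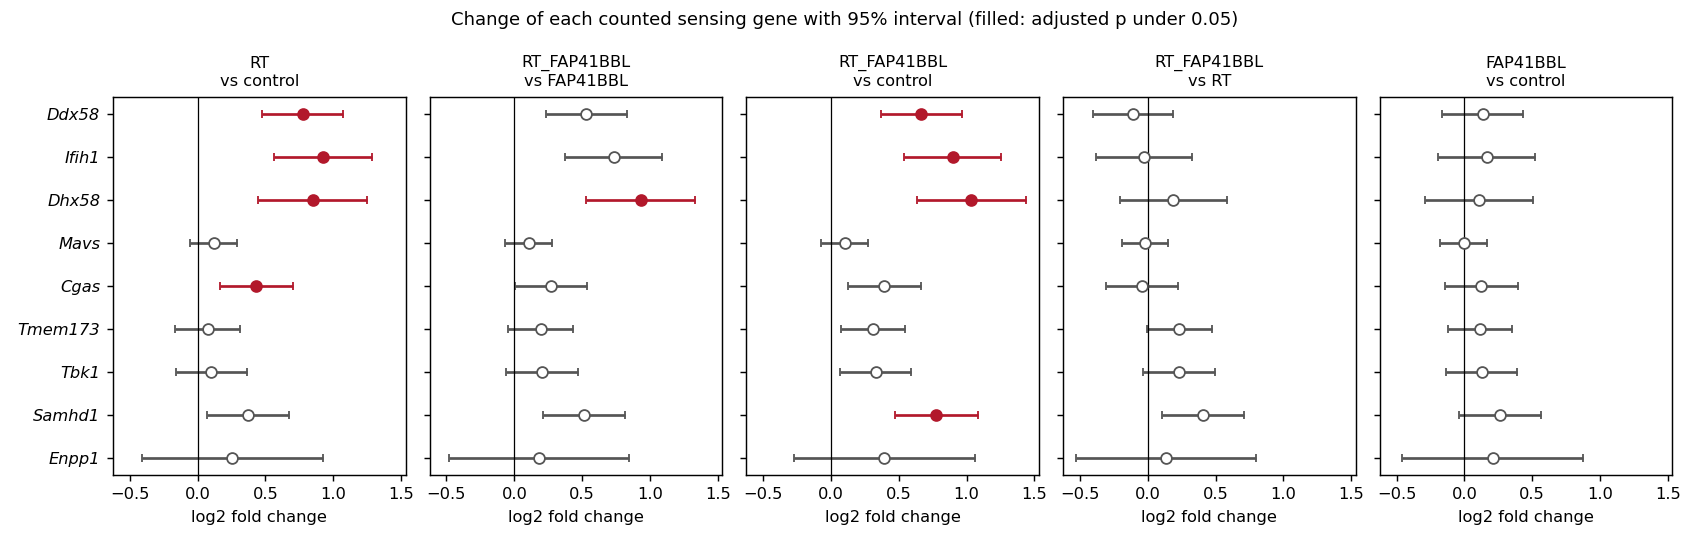
Log2 fold change of the 9 counted sensing genes in 5 comparisons, with 95% intervals, from the fit to all 12 libraries. Filled red points passed an adjusted p of 0.05: 4 genes in RT against control, 1 in RT_FAP41BBL against FAP41BBL, 4 in RT_FAP41BBL against control, and none in the comparisons of RT_FAP41BBL with RT or of FAP41BBL with control.

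No difference in the RNA sensors was detected between FAP41BBL and control tumours. In FAP41BBL against control, 0 of the 9 members passed the quasi-likelihood test, 0 had an unadjusted p under 0.05, and 0 passed in DESeq2 or limma-voom, while 0.00563% of all genes were called in either direction. Ifih1 averaged 112 ± 24 CPM in FAP41BBL and 99.8 ± 9.83 CPM in control, a log2 change of 0.16 with an interval of -0.19 to 0.52. Ddx58 changed by 0.14 (interval -0.16 to 0.43) and Dhx58 by 0.10 (interval -0.29 to 0.50). In FAP41BBL, replicate 2 was the highest library for all 3 sensors, and without it their log2 changes against control were -0.0344, -0.00105 and -0.0370 for Ifih1, Ddx58 and Dhx58.

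In RT_FAP41BBL against RT, 0 of the 9 members passed the quasi-likelihood test, against 5.76% of all genes called in either direction. One had an unadjusted p under 0.05, and DESeq2 called 1. Both were Samhd1. Ddx58 averaged 208 ± 35.6 CPM in RT_FAP41BBL and 224 ± 15 CPM in RT, a log2 change of -0.11 with an interval of -0.41 to 0.19. Ifih1 differed by -0.03 (interval -0.38 to 0.33) and Dhx58 by 0.19 (interval -0.21 to 0.58). The interaction, the radiotherapy change in the presence of the agonist minus that in its absence, gave 0 calls among the members and 0 unadjusted p-values under 0.05 in the quasi-likelihood test, and 0 calls in DESeq2 and limma-voom, against 0.152% of all genes called. Its estimates ran from -0.25 for Ddx58 (interval -0.67 to 0.18) to 0.15 for Samhd1 (interval -0.28 to 0.57), and the widest interval was that of Enpp1, from -1.01 to 0.87.

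Mavs (chromosome 2, 131075983 to 131089945, plus strand), the mitochondrial adaptor that passes the signal of both RNA sensors on, varied least. It had 36.1, 38.2 and 37 CPM in RT_FAP41BBL, 38.5, 36.1 and 38.2 CPM in RT, 35.6, 34.5 and 33.5 CPM in FAP41BBL, and 32.5, 35.4 and 36.0 CPM in control. The irradiated tumours started at 36.06 CPM and the non-irradiated ones ended at 36.03 CPM, so they were barely apart. The log2 change was 0.12 in RT against control, with an interval of -0.05 to 0.29 (adjusted p = 0.396), and 0.10 in RT_FAP41BBL against control, with an interval of -0.07 to 0.27 (adjusted p = 0.495). A change as large as that of Ddx58, Ifih1 or Dhx58 in RT tumours lies outside both intervals.

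On the DNA route, Cgas (chromosome 9, 78337808 to 78350519, minus strand), the enzyme that makes cGAMP on binding DNA, had 37.4, 35.1 and 33.8 CPM in RT_FAP41BBL, 30.3, 39.8 and 39.2 CPM in RT, 27.6, 34 and 26.7 CPM in FAP41BBL, and 28.2, 25.5 and 27.2 CPM in control. Both irradiated groups lay above all 3 control libraries, a position that 14.9% of tested genes held in RT against control, but FAP41BBL replicate 2 reached into their range. Cgas averaged 36.4 ± 5.32 CPM in RT and 27.0 ± 1.36 CPM in control, a log2 change of 0.43 ± 0.12 (adjusted p = 0.0450). This call rested on small margins: it was lost without any 1 of the 3 control libraries or RT replicate 2 or 3, with adjusted p between 0.0831 and 0.172. It was also lost with library totals, without the low-count filter, in limma-voom and with only those 2 groups in the fit, with adjusted p between 0.0521 and 0.0947. In RT_FAP41BBL against control the change was 0.39, with an interval of 0.13 to 0.66 (adjusted p = 0.0706), and in RT_FAP41BBL against FAP41BBL it was 0.27, with an interval of 0.0026 to 0.54 (adjusted p = 0.366). Between RT_FAP41BBL and RT it was -0.04 (interval -0.31 to 0.23).

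Tmem173, the STING adaptor that cGAMP activates, had 102, 125 and 122 CPM in RT_FAP41BBL, 109.5, 87.9 and 99.2 CPM in RT, 107, 101 and 97.6 CPM in FAP41BBL, and 100.4, 86.0 and 95.5 CPM in control. RT and control tumours overlapped, with a log2 change of 0.07 (interval -0.16 to 0.31, adjusted p = 0.737). The 3 RT_FAP41BBL libraries lay above the 3 control libraries, as they did for 20.0% of tested genes, with a log2 change of 0.31 ± 0.11 that missed the threshold (adjusted p = 0.108). In RT_FAP41BBL against RT the change was 0.23 (interval -0.0029 to 0.47, adjusted p = 0.224). Tmem173 levels followed the summed macrophage and monocyte markers at r = 0.83 over the 12 libraries and 0.63 within groups, and T cell markers at 0.74 and 0.82. Dendritic cell markers gave 0.69 and 0.67, and epithelial markers -0.50 and -0.29. Of 10 T cell markers, 5 were higher in RT_FAP41BBL than in RT, beside 3.36% of all tested genes. In RT_FAP41BBL against control 2 of the 10 were higher, beside 5.59% of all tested genes. The part of those cells in the Tmem173 level was not tested.

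Tbk1 (chromosome 10, 121382360 to 121422692, minus strand), the kinase on which both routes converge, had 79.3, 75.9 and 81.2 CPM in RT_FAP41BBL, 53.6, 70.5 and 77.3 CPM in RT, 63.8, 75.8 and 65.7 CPM in FAP41BBL, and 63.0, 62.0 and 63.1 CPM in control. The RT libraries spread widest, one below and the other two above all controls, while the control libraries lay close together. The log2 change was 0.10 in RT against control (interval -0.16 to 0.36, adjusted p = 0.669) and 0.33 in RT_FAP41BBL against control (interval 0.07 to 0.59, adjusted p = 0.119). Neither passed.

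The nuclease Trex1, which degrades DNA in the cytosol and so holds Cgas in check, could not be measured. Its count was 0 in all 12 libraries. All 1147 of its exonic bases in the authors' annotation (chromosome 9, 108887001 to 108888802, GRCm39, minus strand) lie inside exons of Atrip on the same strand, which is 100% of the gene. The recorded counting command sets no option to count reads that fall on more than 1 gene, and such reads are then dropped. The 3-count limit that a count of 0 allows, 0.0713 to 0.088 CPM per library, therefore limits reads assigned to Trex1 alone and not its expression. Atrip, a partner of the checkpoint kinase ATR with 6005 exonic bases outside Trex1, had 553 to 589 counts in RT_FAP41BBL, 567 to 621 in RT, 485 to 610 in FAP41BBL and 537 to 563 in control, and these come from its unshared bases. Each of the other 9 members shared 0% of its exonic bases with another gene on its strand.

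**Figure D3:**
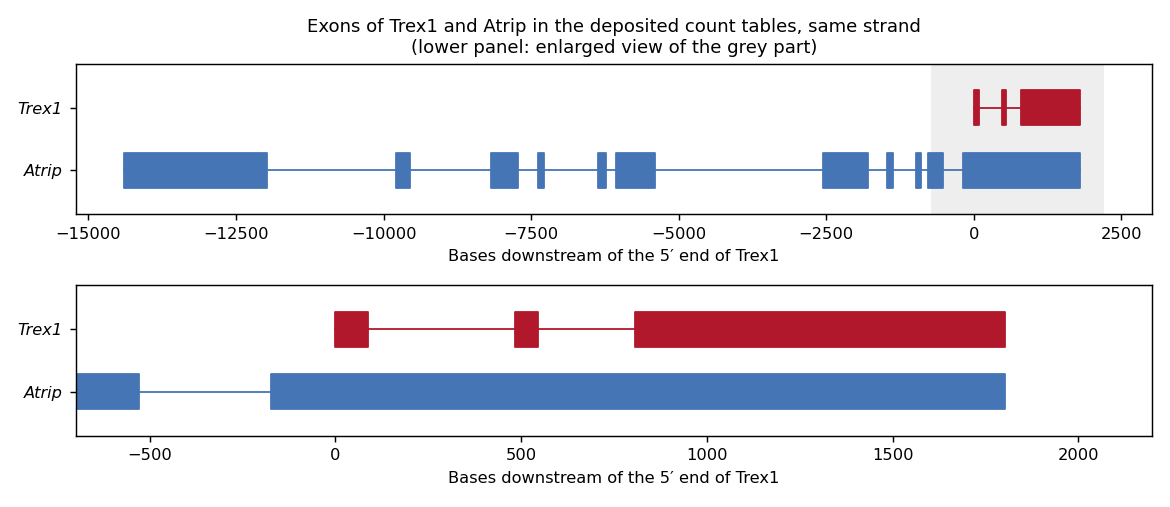
Exons (boxes) and introns (lines) of Trex1, in red, and Atrip, in blue, in the annotation of the count tables, drawn to scale in bases downstream of the 5′ end of Trex1. The lower panel enlarges the grey part of the upper one. Each Trex1 exon lies within the last Atrip exon, so none of its 1147 exonic bases is free of Atrip.

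Samhd1 (chromosome 2, 156939453 to 156977185, minus strand), which hydrolyses deoxynucleotides and limits the DNA available to sensors, was the most abundant member. It had 600.0, 790.5 and 709 CPM in RT_FAP41BBL, 550.0, 464 and 568 CPM in RT, 436, 561 and 471 CPM in FAP41BBL, and 399.9, 369.9 and 456 CPM in control. The RT_FAP41BBL tumours lay above those of RT (as in 14.5% of tested genes), FAP41BBL (12.3%) and control (20.0%). RT lay above control, as in 14.9% of tested genes, though FAP41BBL replicates 2 and 3 were within the RT range. Samhd1 averaged 700 ± 95.6 CPM in RT_FAP41BBL and 409 ± 43.7 CPM in control, a log2 change of 0.78 ± 0.14 (adjusted p = 0.00740, and 0.0579 without control replicate 2). In RT against control the change was 0.37, with an interval of 0.07 to 0.67 (adjusted p = 0.123). In RT_FAP41BBL against RT (527 ± 55.5 CPM) it was 0.41 ± 0.14, with an unadjusted p of 0.0123 and an adjusted p of 0.102, while DESeq2 gave an adjusted p of 0.0486. In RT_FAP41BBL against FAP41BBL (490 ± 64.6 CPM) it was 0.52, with an interval of 0.21 to 0.82 (adjusted p = 0.103).

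Myeloid cells are known to express Samhd1 strongly, so macrophage and monocyte markers are given beside it. In RT_FAP41BBL against control 8 of these 15 markers were higher and none lower, beside 5.59% of all tested genes called higher. In RT_FAP41BBL against RT 7 were higher and none lower, beside 3.36% of all genes called higher. In RT against control 2 were higher and 1 was lower, beside 6.57% and 3.05% of all genes, with a median log2 change of -0.06. In RT_FAP41BBL against FAP41BBL 3 were higher, beside 0.822% of all genes. Over the 12 libraries Samhd1 correlated with their summed level at r = 0.82, and within groups at r = 0.70. Ifih1 and Ddx58 correlated with the same macrophage and monocyte level at r = 0.30 and 0.23 over all libraries and at -0.13 and -0.16 within groups. Dhx58 correlated with it at r = 0.52 over all libraries and at 0.39 within groups. Against the T cell markers Samhd1 gave r = 0.53 over all libraries and 0.73 within groups, and against the epithelial markers -0.62 and -0.71. The part of these cells in the Samhd1 level was not tested.

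**Figure D4:**
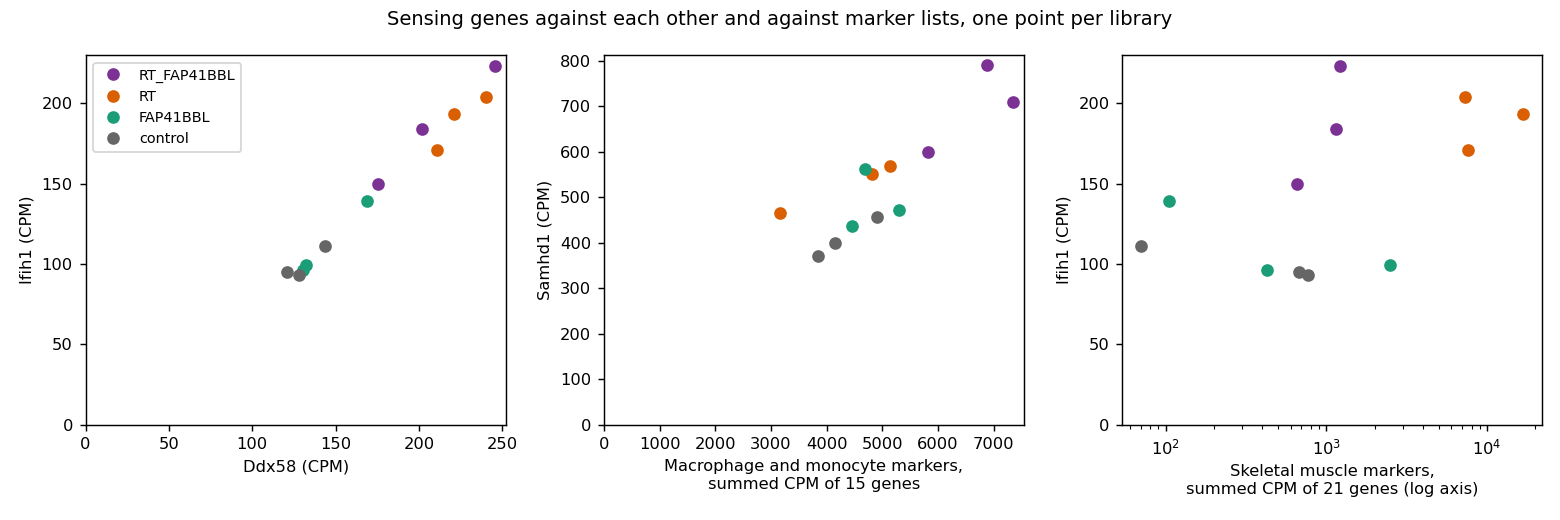
One point per library, coloured by group, all levels in CPM. Left, Ifih1 against Ddx58, which rise together through all 12 libraries. Middle, Samhd1 against the summed level of 15 macrophage and monocyte markers, where the 3 RT_FAP41BBL libraries, from 5820 CPM of markers, sit highest on both axes. Right, Ifih1 against the summed level of 21 muscle markers on a log axis, where the RT libraries lie at 7284 CPM and above and the RT_FAP41BBL libraries between 659 and 1210 CPM at similar Ifih1 levels.

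Enpp1 (chromosome 10, 24513812 to 24588057, minus strand), the membrane enzyme that hydrolyses extracellular cGAMP, was the least abundant of the measured members, with 132 to 316 counts in a library. It had 5.50, 5.49 and 7.85 CPM in RT_FAP41BBL, 5.34, 3.93 and 7.88 CPM in RT, 3.57, 5.41 and 7.63 CPM in FAP41BBL, and 3.70, 5.61 and 5.03 CPM in control. Every pair of groups overlapped. The log2 change was 0.26 in RT against control, with an interval of -0.41 to 0.92 (adjusted p = 0.663), and 0.39 in RT_FAP41BBL against control, with an interval of -0.27 to 1.06 (adjusted p = 0.487). These intervals are wide enough to hold a change like that of Ddx58. Enpp1 levels followed the summed fibroblast markers at r = 0.74 over the 12 libraries and 0.80 within groups. They also followed adipocyte markers, at 0.66 and 0.70, and macrophage and monocyte markers, at 0.62 and 0.67. The part of these cells in the Enpp1 level was not tested.

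Per kilobase of exon, the order of levels in control tumours was Samhd1 (44.7 ± 4.78 RPKM), Tmem173 (34.3 ± 2.66), Dhx58 (19.7 ± 3.05), Ddx58 (18.6 ± 1.63), Tbk1 (16.0 ± 0.157), Ifih1 (12.2 ± 1.20), Mavs (10.4 ± 0.569), Cgas (6.54 ± 0.329) and Enpp1 (0.466 ± 0.0952), in RPKM with SD over 3 libraries. Only Dhx58 and Ddx58 overlapped among neighbours in this order. In RT_FAP41BBL tumours Samhd1 stood at 76.5 ± 10.4 RPKM and Tmem173 at 42.4 ± 4.63 RPKM. Dhx58, at 40.5 ± 10.6 RPKM, overlapped Tmem173 there, as it did in RT at 35.5 ± 4.04 RPKM against 36.1 ± 3.95 RPKM for Tmem173. Ifih1 ranked above Tbk1 in both irradiated groups, with 22.8 ± 4.50 against 20.1 ± 0.692 RPKM in RT_FAP41BBL, where they overlapped, and 23.2 ± 2.05 against 17.2 ± 3.11 RPKM in RT, where they did not. It ranked below Tbk1 in FAP41BBL, with overlap (13.7 ± 2.94 against 17.5 ± 1.66 RPKM), and in control. The other 7 genes had the same places in all 4 groups.

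**Figure D5:**
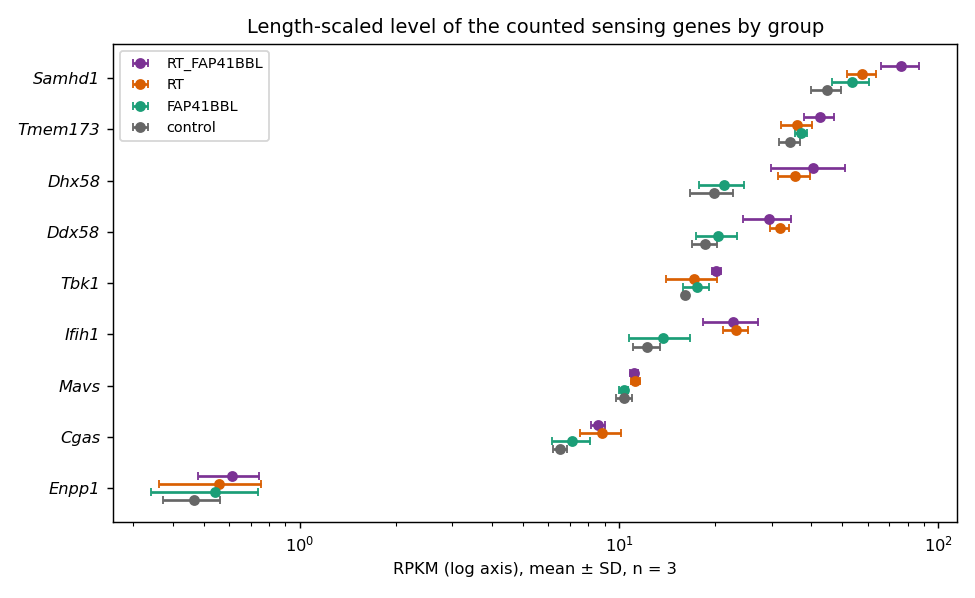
Mean RPKM ± SD (n = 3 libraries) of the 9 counted sensing genes on a log axis, one row per gene and one colour per group. Samhd1 leads in each group and Enpp1, under 1 RPKM, is last, while Dhx58, Ddx58 and Ifih1 show a gap between the irradiated and the non-irradiated groups.

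The RNA sensors moved together library by library. Ddx58 and Ifih1 correlated at r = 0.992 in log2 CPM over the 12 libraries and at r = 0.976 after group means were removed, and Dhx58 correlated within groups with Ddx58 at r = 0.79 and with Ifih1 at r = 0.76. These are descriptions over libraries that share depth and composition. Of 11946 genes searched, the most alike in pattern were Trim30a for Ifih1 (r = 0.993) and for Ddx58 (0.988, after Ifih1 itself), and Phf11a (0.991) and Irf7 (0.980) for Dhx58. For Samhd1 they were M6pr (0.980) and Clcn7 (0.979), for Tmem173 Akr1b10 (0.969) and Plekho1 (0.962), and for Tbk1 Zfp607a (0.964) and Mtm1 (0.961). For Cgas they were Aftph (0.933) and Trmt6 (0.926), for Enpp1 She (0.948) and Sipa1l2 (0.935), and for Mavs Klc2 (0.908) and Dusp8 (0.874). Cgas and Tbk1 correlated at r = 0.86 within groups.

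Other genes of these pathways were taken from lists of 26 DNA sensing genes, 26 RNA sensing genes, and 21 genes of the kinase and transcription relay. In RT against control, 4 of the 26 DNA sensing genes (15.4%) were higher and none lower, beside 6.57% of all tested genes called higher. They were Zbp1, a sensor of Z-form nucleic acid (log2 change 1.01 ± 0.19, adjusted p = 0.00668), Ifi204, an interferon-inducible DNA binding protein (0.90 ± 0.15, adjusted p = 0.00388), and its relatives Ifi203 (0.55 ± 0.14, adjusted p = 0.0248) and Mndal (0.49 ± 0.13, adjusted p = 0.0382). Ifi204, Ifi203 and Mndal are close paralogs, and reads shared among them make each one's value uncertain. Zbp1 and Ifi204 passed with any 1 library left out, and 2 of the 26 passed without any 1 of the control libraries. Zbp1 averaged 259 CPM in RT and 128 CPM in control, and in RT_FAP41BBL against FAP41BBL it was the only one of the 26 called (293 CPM in RT_FAP41BBL and 157 CPM in FAP41BBL, log2 change 0.91 ± 0.19, adjusted p = 0.0475). It missed there without any 1 of the 6 libraries compared (adjusted p 0.0535 to 0.239). In RT_FAP41BBL against control 6 of the 26 (23.1%) were higher, beside 5.59% of all tested genes, 10 were called with only those 2 groups in the fit, 8 of them higher, and the count was 2 without control replicate 2 and 3 without RT_FAP41BBL replicate 2. The median log2 change of the list was 0.05 in RT against control and 0.14 in RT_FAP41BBL against control, beside -0.0019 and 0.01 over all genes.

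Of the 26 other RNA sensing genes, 6 (23.1%) were higher and none lower in both RT and RT_FAP41BBL against control, beside 6.57% and 5.59% of all tested genes called higher in those comparisons. DESeq2, and a fit of only those 2 groups, each called 10 in RT_FAP41BBL against control, 8 higher and 2 lower, and without RT replicate 1 the calls in RT against control were 8, 6 higher and 2 lower. Oasl1, an interferon-induced regulator of antiviral translation in the mouse, had 109.2, 168 and 92.9 CPM in RT_FAP41BBL, 114, 109.0 and 119 CPM in RT, 50.5, 59.0 and 49.1 CPM in FAP41BBL, and 35.1, 36.0 and 49.4 CPM in control. Its irradiated and non-irradiated tumours did not overlap. The log2 change was 1.51 ± 0.20 in RT against control (adjusted p = 0.00150) and 1.22 ± 0.20 in RT_FAP41BBL against FAP41BBL (adjusted p = 0.0234). Oasl2 (1.06 ± 0.18, adjusted p = 0.00488), the endosomal RNA receptor Tlr3 (0.67 ± 0.16, adjusted p = 0.0234) and the helicase Ddx60 (0.84 ± 0.20, adjusted p = 0.0238) were also higher in RT than in control. Without RT replicate 2 or control replicate 1 or 2, Oasl1 and Oasl2 alone passed, and without RT replicate 3 so did 3 of the 26. In RT_FAP41BBL against control 2 passed without RT_FAP41BBL replicate 2 or control replicate 1 or 2, and 3 without RT_FAP41BBL replicate 1. In RT_FAP41BBL against FAP41BBL 2 of the 26 passed, Oasl1 and Oasl2, and none without RT_FAP41BBL replicate 1 or 2 or FAP41BBL replicate 1 or 3. The other genes of this list, among them many ubiquitin ligases and phosphatases that act on the sensors, mostly missed the threshold.

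In the relay list, 2 of 21 genes (9.52%) were higher in RT than in control, near the 6.57% of all tested genes, and 5 (23.8%) in RT_FAP41BBL than in control, beside 5.59% of all genes. None was called lower in either, but 1 was in RT against control without RT replicate 1 and 1 in RT_FAP41BBL against control with only those 2 groups in the fit. Irf7, the transcription factor that amplifies type I interferon production, had 824, 1339 and 747 CPM in RT_FAP41BBL, 859, 656 and 739.8 CPM in RT, 312, 403 and 312 CPM in FAP41BBL, and 276, 255 and 298 CPM in control. All irradiated tumours were above all non-irradiated ones. The log2 change was 1.44 ± 0.20 in RT against control (adjusted p = 0.00181), 1.81 ± 0.21 in RT_FAP41BBL against control (adjusted p = 0.00194) and 1.5 ± 0.20 in RT_FAP41BBL against FAP41BBL (adjusted p = 0.0188). Tank, a scaffold of Tbk1, was the other gene called in RT against control (0.41 ± 0.12, adjusted p = 0.0442), and Irf5, a myeloid interferon regulatory factor, the other in RT_FAP41BBL against FAP41BBL (0.69 ± 0.12, adjusted p = 0.0296). Tank missed with any 1 library left out. Irf5 passed without FAP41BBL replicate 2 and missed without any other of the 6 libraries, and Irf7 missed there without FAP41BBL replicate 1 or 3. The count of 5 became 3 without any 1 of the control libraries or RT_FAP41BBL replicate 2 or 3.

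Although none of the members passed in RT_FAP41BBL against RT, 5 genes of these lists were higher there, 2 of the 26 DNA sensing genes (7.69%), 3 of the 21 relay genes (14.3%) and 0 of the 26 RNA sensing genes, beside 3.36% of all tested genes called higher. These counts are small and are a description, with no test of the lists. Named after their values were seen, the 5 were Aim2, the DNA sensor of an inflammasome (log2 change 0.97, adjusted p = 0.0111), the lysosomal nuclease Dnase2a (0.47, adjusted p = 0.0325), the Tbk1-related kinase Ikbke (0.73, adjusted p = 0.0263), the Tbk1 adaptor Tbkbp1 (0.64, adjusted p = 0.0407) and Irf5 (0.50, adjusted p = 0.0380). With the muscle covariate none of the 5 passed. Aim2 missed without RT_FAP41BBL replicate 3 (adjusted p = 0.0626), and of the others none passed without RT_FAP41BBL replicate 2 or 3 or RT replicate 2. The macrophage, monocyte and T cell markers that were higher in the same comparison are given above, and their part in these genes was not tested.

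Counted transcripts of the interferons themselves were scarce. Ifnb1, the type I interferon that the sensing routes induce first, had 16, 19 and 10 counts in RT_FAP41BBL, 17, 25 and 21 counts in RT, 6, 5 and 5 counts in FAP41BBL, and 3, 1 and 15 counts in control. Control replicate 3 reached into the irradiated range, and the log2 change of 1.59 ± 0.62 in RT against control did not pass (adjusted p = 0.130). Ifnb1 levels in the 3 RT_FAP41BBL libraries lay above those in the 3 FAP41BBL libraries, as in 12.3% of tested genes. In that comparison neither of the 2 tested interferon genes passed, and 1 had an unadjusted p under 0.05 in the quasi-likelihood test. The 14 Ifna genes together had at most 5 counts in a library, and reads shared among these related genes make their values uncertain. Of the 20 interferon genes 2, Ifnb1 and Ifng, passed the low-count filter. Ifng shares 25.9% of its exonic bases with another gene on its strand. Ifng averaged 3.60 CPM in RT_FAP41BBL and 1.20 CPM in control, a log2 change of 1.59 ± 0.48 that missed the threshold (adjusted p = 0.0656).

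Transcripts of interferon-stimulated genes were not scarce. Of 26 interferon-stimulated genes, 24 were higher in RT than in control and 25 in RT_FAP41BBL than in control, with none lower and with median log2 changes of 1.07 and 1.19. Of all tested genes, 6.57% and 5.59% were called higher in these comparisons. In RT_FAP41BBL against FAP41BBL 11 of the 26 were higher, beside 0.822% of all genes, with a median of 0.93. The count was 21 in DESeq2, 3 with only those 2 groups in the fit and 2 without RT_FAP41BBL replicate 1. None passed without RT_FAP41BBL replicate 2 or FAP41BBL replicate 1 or 3. In FAP41BBL against control none passed the quasi-likelihood test, DESeq2 or limma-voom, 2 had an unadjusted p under 0.05, and all 26 estimates were above 0 with a median of 0.32, beside 0.0091 over all genes. In RT_FAP41BBL against RT none passed, 1 had an unadjusted p under 0.05, and 1 was called in DESeq2 and 1 without RT replicate 3. Rsad2, an antiviral enzyme, averaged 195 CPM in RT and 51.3 CPM in control, a log2 change of 1.92 ± 0.24 (adjusted p = 0.00148). The ubiquitin-like protease Usp18 changed by 1.6 ± 0.21 (adjusted p = 0.00159) and the nucleotide kinase Cmpk2 by 1.40 ± 0.19 (adjusted p = 0.00157) in the same comparison. With the muscle covariate none of the 26 passed in RT against control, and 24 passed in RT_FAP41BBL against control.

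Over the 12 libraries the members fell along a range of likeness to these interferon-stimulated genes. Within groups, Dhx58 followed their summed level at r = 0.95, Ddx58 at 0.85, Ifih1 at 0.83 and Samhd1 at 0.75. Mavs followed it at 0.39, Tmem173 at 0.38 and Cgas at 0.23, while Tbk1 and Enpp1 did not, at -0.0046 and -0.12. The 4 members with the highest values are those called in RT_FAP41BBL against control.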

How the data were processed

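Stranded poly(A) RNA libraries of 12 mouse tumour samples, 3 in each of 4 groups, were analysed, with groups and replicate numbers from the submitters' titles. The deposited files hold raw counts per gene and library, which, per the file headers, featureCounts 1.6.0 made from read pairs over reverse-stranded exons of GENCODE M33. The submitters' processing notes also name GRCm39, limma, edgeR, FastQC 0.11.8 and STAR 2.7.9a. Symbols came from GENCODE M21 by gene identifier and named 51948 of 56884 genes (91.3%). Promoter sequences are RefSeq's on GRCm38.p6, another build than the files', and only used as sequence.

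Counts were fitted in R 4.3.3 with edgeR 4.0.16: filterByExpr left 17757 genes, libraries were scaled by TMM, and 1 model with 4 groups was fitted to all 12 libraries (common biological coefficient of variation 0.205, 8 residual degrees of freedom). Contrasts were tested with the robust quasi-likelihood test and Benjamini-Hochberg adjustment over all 17757 genes at 0.05, which gives every adjusted p unless another tool is named. SE is the log2 change over the square root of F, and intervals are 95%. RPKM divides TMM-scaled CPM by exon length, and correlations use log2 CPM with a prior count of 2. The 3-count limit on a 0 covers counting error only. The steps were tested on simulated counts.

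Of the lists other than the members, the text names up to 4 genes with the smallest p in RT against control and up to 2 in RT_FAP41BBL against FAP41BBL among those called, Ifnb1 and Ifng, and the 2 genes most alike in pattern to each member. Genes named outside this rule are marked as such. The members and lists were chosen with earlier results of these data known. Lists of dendritic cells, T cells and adipocytes were also summed. In RT against control 1 of 10, 0 of 10 and 0 of 10 of their genes were higher, beside 6.57% of all tested genes. In RT_FAP41BBL against control 1, 2 and 2 of 10 were higher, beside 5.59%, with a median log2 change of 2.84 for the adipocyte genes. Adipocyte markers summed to 196 to 505 CPM in RT_FAP41BBL, 154 to 386 CPM in RT, 265 to 425 CPM in FAP41BBL and 104 to 183 CPM in control. The part of adipocytes in the member levels was not tested. The alternatives were DESeq2 1.42.0, limma-voom (limma 3.58.1), RLE scaling, library totals, keeping genes of low count, a replicate block, the muscle score as a covariate, only the 2 compared groups in a fit, and each library left out in turn. No 2 libraries of a group were copies, with a chi-square per degree of freedom of at least 19.0.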

Additional observations from a re-analysis of the deposited data

How the results depend on the processing

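Of the 9 measured members, 4 passed in RT against control, 4 in RT_FAP41BBL against control, 1 in RT_FAP41BBL against FAP41BBL and 0 in the other 3 comparisons. With the muscle score as a covariate 0 passed in RT against control, where that score nearly coincides with the group, and 2 in RT_FAP41BBL against FAP41BBL. That last comparison gave 2 without the low-count filter, 4 in DESeq2 and 0 with only its 6 libraries in the fit. DESeq2 called 1 member in RT_FAP41BBL against RT. With 1 library left out at a time the count was 2 to 4 in RT against control (2 without control replicate 1 or 2), 1 to 4 in RT_FAP41BBL against control (1 without control replicate 2) and 0 to 2 in RT_FAP41BBL against FAP41BBL. In RT against control 3 passed with library totals, without the filter, in limma-voom and with only its 6 libraries in the fit. In RT_FAP41BBL against control 5 passed in DESeq2 and 6 with only those 2 groups in the fit. The cause was not tested.

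Same-numbered libraries of different groups deviated together at r between -0.344 and 0.432, and in none of the 5 pairs of groups compared directly were all 3 over 0.1. Between RT and FAP41BBL, which were not compared directly, all 3 were (0.176 to 0.432), but RT replicate 2 deviated more with FAP41BBL replicate 1 (0.247) than with its own number. The labels give the numbers no shared animal, batch or day, and they were not taken as pairs. With the replicate block 3, 4 and 1 members passed in the 3 comparisons with calls, and 0 in the others. Cgas fell out in RT against control (adjusted p = 0.0582), and in RT_FAP41BBL against FAP41BBL Ifih1 passed (0.0472) and Dhx58 did not (0.0557).

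Over all genes, calls in RT against control were 1709, against 3 with the covariate, 1064 with only 2 groups and 805 to 1987 with a library left out. In RT_FAP41BBL against control they were 1404, against 2289 in DESeq2, 3223 with only 2 groups, 812 with the covariate and 351 to 914 with a library left out. In RT_FAP41BBL against FAP41BBL 168 became 754 in DESeq2, 269 with only 2 groups, 110 with the covariate and 0 to 132 with a library left out. In RT_FAP41BBL against RT 1022 became 2025 in DESeq2, 3 with the covariate and 70 to 2305 with a library left out. In FAP41BBL against control 1 became 48 in DESeq2, 9 without the filter, 2 with the covariate, 0 with only 2 groups and 0 to 3 with a library left out. For the interaction 27 became 629 in DESeq2, 102 without the filter, 17 with library totals, 9 with the replicate block, 0 with the covariate and 0 to 269 with a library left out.

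Some estimates that had not passed changed sign. With the covariate, Enpp1 in RT against control became -0.13, Mavs in FAP41BBL against control 0.00214, Dhx58 in RT_FAP41BBL against RT -0.0128, Tank in RT_FAP41BBL against FAP41BBL 0.0314, and the interactions of Enpp1, Dhx58 and Samhd1 0.25, -0.15 and -0.0513. With library totals Mavs became 0.00596 in FAP41BBL against control and 0.00568 in RT_FAP41BBL against RT, and with limma-voom the Enpp1 interaction became 0.0300 on the log2 scale. With a library left out, log2 changes in RT against control ran from -0.00794 to 0.14 for Tmem173, -0.0367 to 0.24 for Tbk1 and -0.0659 to 0.46 for Enpp1. In FAP41BBL against control they ran from -0.00105 to 0.21 for Ddx58, -0.0344 to 0.25 for Ifih1, -0.0370 to 0.24 for Dhx58, -0.0923 to 0.44 for Enpp1 and -0.0493 to 0.0234 for Mavs. In RT_FAP41BBL against RT they ran from -0.0620 to 0.000327 for Mavs, -0.0412 to 0.33 for Dhx58, -0.0878 to 0.43 for Enpp1, -0.18 to 0.11 for Ifih1 and -0.16 to 0.0143 for Cgas. In RT_FAP41BBL against FAP41BBL they ran from -0.0698 to 0.49 for Enpp1 and -0.13 to 0.0799 for Tank. Interactions ran from -0.31 to 0.23 for Enpp1, -0.0524 to 0.0312 for Mavs, -0.15 to 0.23 for Dhx58 and -0.0340 to 0.22 for Tbk1.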
